A study of Mus musculus with 5 samples.

Results

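Heat shock chaperones are the proteins that keep other proteins folded when a cell is stressed. The set described here held 10 genes, Hspa1a, Hspa1b, Hspa8, Hsph1, Dnajb1, Hsp90aa1, Hspb1, Hspb8, Bag3 and Hspe1. They were chosen by gene symbol from the table of 33635 gene identifiers, taking the row with the largest total where a symbol had several rows. All 10 were found, and all 10 were among the 17432 genes that passed the filter on low counts.

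RNA-Seq of the retina was performed in wild-type male mice of the inbred C57BL/6J strain (written C57BL6/J in the labels) at postnatal day (P) 42. In every mouse a diffuser goggle had covered the right eye since P28, a manipulation that blurs the retinal image and is used to induce form-deprivation myopia (FDM), and the uncovered left eye of the same animals gave the control libraries. The files held 5 libraries, 2 from FDM eyes and 3 from contralateral control eyes. All control eyes came from operated animals, and no retina of a mouse without a goggle was analysed here, so that a change shared by both eyes cannot be seen. The refractive error at P42 was 0.976 D in FDM 1 and 0.2745 D in FDM 3, against 2.4455 D in Control 1, 3.1505 D in Control 2 and 2.465 D in Control 3, so both goggled eyes were the more myopic. FDM 1 and Control 1 were the eyes of one mouse and FDM 3 and Control 3 those of another, while Control 2 was without a partner, as the authors had removed 1 FDM library for its read duplication. The labels give the library called FDM 3 here the number 2, and the number used here is that of its column in the count table and of the sequencing tables of the study.

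The library totals ran from 40599047 to 56534931 estimated counts. Levels are given in CPM, counts scaled to a common library size after normalization by the trimmed mean of M values (TMM). The summed level of 16 retinal markers was 48500 to 61200 CPM, which fits the labelled tissue. The libraries differed in markers of neighbouring tissue. Of 13 lens markers tested, all 13 were highest in FDM 3, where they summed to 2270 CPM against 4.63 to 24.8 CPM elsewhere. Markers of the retinal pigment epithelium (RPE) summed to 260 CPM in Control 2 and 250 CPM in Control 3, against 58.4 to 72 CPM in the other 3 libraries, with the defining marker Rpe65 at 4.51 to 5.49 CPM in the latter. All 6 skeletal muscle markers tested were highest in Control 3, where the 10 listed genes summed to 101 CPM against 10.8 to 12.1 CPM, and Myh1 and Myh4, which mark fast muscle fibres, were at 0 in FDM 1. Blood markers (33 to 47.6 CPM), microglia and macrophage markers (27.7 to 36.3 CPM), endothelial and pericyte markers (276 to 324 CPM) and markers of reactive Müller glia (256 to 285 CPM) varied less. In whole retina, fewer cells of a type and less RNA per cell cannot be told apart.

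The cytosolic chaperones work as a cycle. Hsp40 proteins deliver an unfolded client to Hsp70 and trigger its ATPase, exchange factors such as Hsp110 and Bag3 reset Hsp70, and many clients are then passed to Hsp90, while small heat shock proteins hold unfolded clients until Hsp70 can take them. In stressed cells heat shock factor 1 binds heat shock elements, arrays of inverted GAA units, and switches on the inducible members. The retina turns over large amounts of photoreceptor membrane protein every day, and Hsp70 and small heat shock proteins are known to be induced there by heat, bright light and injury.

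The upstream sequences of the inducible Hsp70 pair are shown because the genes are near-copies, which limits how well their reads can be separated. Each is the 250 bases before the start of the gene in the RefSeq annotation of GRCm38.p6, read 5′ to 3′ on the strand of the gene, with the 8 bases that match the letters of a heat shock element in capitals. The window of Hspa1a is at chr17:34972157-34972406 and that of Hspa1b at chr17:34959239-34959488, both on the minus strand.

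Hspa1a: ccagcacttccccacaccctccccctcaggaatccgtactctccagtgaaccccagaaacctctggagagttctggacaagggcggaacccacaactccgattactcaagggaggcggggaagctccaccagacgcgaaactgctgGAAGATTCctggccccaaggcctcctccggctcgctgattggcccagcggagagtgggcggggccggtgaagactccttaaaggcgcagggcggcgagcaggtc

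Hspa1b: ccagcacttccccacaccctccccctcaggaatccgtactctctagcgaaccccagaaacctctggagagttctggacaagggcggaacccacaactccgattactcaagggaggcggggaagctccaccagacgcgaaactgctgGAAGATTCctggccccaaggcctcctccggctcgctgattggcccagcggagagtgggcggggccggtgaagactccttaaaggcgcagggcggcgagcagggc

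These windows differed at 3 of 250 bases, C44T, T47C and T249G, where the Hspa1a base comes first and positions are counted from the 5′ end. The capitals were the same in both and began 104 bases before the start. Upstream windows were given for 8 of the 10 genes and not for Hspa8 and Hsp90aa1. The forms searched were GAANNTTC and TTCNNGAA, each of which reads the same on both strands, and the longer GAANNTTCNNGAA or TTCNNGAANNTTC, which contains both short forms in overlap. A short form was found upstream of 5 of the 8 genes, against 12.8% of 32851 windows of all genes, and a long form upstream of 1, against 0.466%. These shares are per window, whereas the 8 genes had 10 windows, with more than 1 for Hsph1 and for Dnajb1. The near-copies Hspa1a and Hspa1b are counted separately although they hold the same match. The stretches of the other genes that held a match are shown with the match in capitals.

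Hspb1, chr5:135887801-135887830, plus strand: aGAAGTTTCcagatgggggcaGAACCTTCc

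Hsph1, chr5:149636352-149636379, minus strand: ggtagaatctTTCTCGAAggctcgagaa

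Hspe1, chr1:55088053-55088082, plus strand: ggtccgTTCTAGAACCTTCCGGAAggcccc

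Hspb1 had 2 separate matches, Hsph1 had 1, and in Hspe1 the overlapping matches formed the longer array. The letters were not found in the windows of Hspb8, Dnajb1 and Bag3. A match of letters is a description and not a measured binding site.

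The levels of the 10 genes in the mouse retina spanned a wide range. Per kilobase of annotated exon, and as the mean over the 5 libraries, Hsp90aa1 was at 373 ± 40.9 (SD) CPM per kb and Hspa8 at 282 ± 38.2 CPM per kb. They were followed by Hspa1a at 24.3 ± 2.24, Hspe1 at 22.2 ± 1.53, Dnajb1 at 18.6 ± 2.53 and Hspa1b at 18.3 ± 1.96 CPM per kb. Hsph1 was at 9.04 ± 1.6, Hspb1 at 4.52 ± 0.943, Hspb8 at 3.95 ± 0.79 and Bag3 at 2.46 ± 0.454 CPM per kb. The ranges over libraries of neighbours in this order overlapped from Hspa1a through Hspe1 and Dnajb1 to Hspa1b, and for Hspb1 and Hspb8, and not for the other neighbours. The exon length covers all annotated transcripts of a gene, so that genes with long unused exons appear lower.

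Between FDM and control eyes, none of the 10 chaperones passed the threshold of the study, an unadjusted p value of 0.05, in edgeR's quasi-likelihood test. In the same test 281 of 17432 genes passed, which is 1.61%, and the adjusted p was 1 for each of the 10 genes. The counts were also 0 of 10 in DESeq2, which called 0.987% of all genes at that threshold and 0.0172% after adjustment, and 0 of 10 in limma, run on the authors' normalized values, which called 1.72% of all genes with a pseudocount of 1 and 1.68% with 0.1. The fitted log2 fold changes (FDM over control) lay between -0.34 and 0.05, 9 of the 10 were below 0, and their median was -0.10 against -0.01 for all genes tested, where 9688 of 17432 were below 0. With the mouse as a block, a fit in which the unpaired Control 2 adds nothing to the difference between eyes, 1 of the 10 passed (Bag3, lower), and the median was -0.06. With that block 7.23% of all genes passed, 3.57% higher and 3.67% lower, and 0.31% after adjustment, none of them among the 10. The block fit compares 2 pairs of eyes and leaves little residual variation for each gene. Its standard errors and intervals therefore lean on the spread estimated over all genes together.

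**Figure D1:**
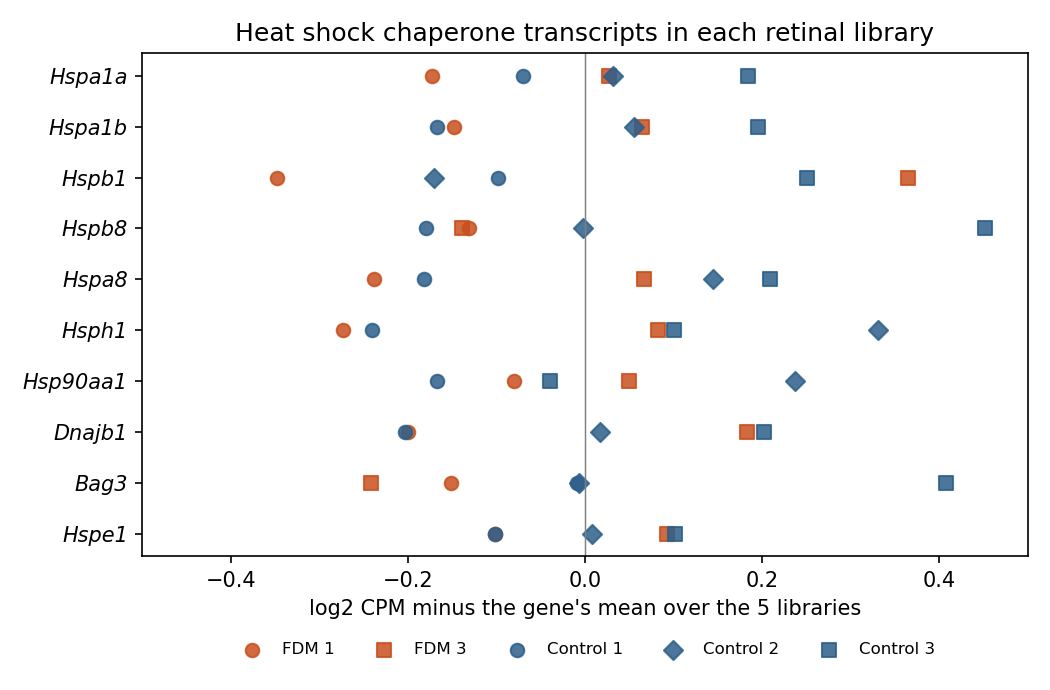
Level of each chaperone in each of the 5 retinal libraries, as log2 CPM minus the mean of that gene over the libraries. Orange marks FDM eyes, blue marks control eyes, and the shape marks the mouse (circle mouse 1, diamond mouse 2, square mouse 3). Both eyes of mouse 1 are on the left for most genes, and Bag3 is the gene in which both orange symbols lie left of all blue ones.

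Hspa1a and Hspa1b, on chromosome 17 (34969190 to 34972156 and 34956436 to 34959238, GRCm38, minus strand), encode the stress-inducible cytosolic Hsp70. Hspa1a was at 63.8 CPM in FDM 1 and 73.3 CPM in FDM 3, against 68.5, 73.5 and 81.7 CPM in Control 1, 2 and 3. The highest value was in Control 3, the lowest in FDM 1, and FDM 3 lay within the range of the controls. The log2 fold change was -0.12 ± 0.11 (SE), with a 95% interval of -0.38 to 0.14. Hspa1b was at 46.0 and 53.3 CPM in FDM 1 and FDM 3 and at 45.4, 53.0 and 58.4 CPM in Control 1, 2 and 3. Both FDM values lay within the control range, and the log2 fold change was -0.07 ± 0.13 (95% interval -0.37 to 0.22).

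The split between these near-copies is uncertain. Of the 50-base windows in the annotated transcripts of Hspa1a, 58.8% also occurred in Hspa1b, and 62.3% of those of Hspa1b occurred in Hspa1a. Read pairs lying wholly in these stretches had to be divided by the estimate of the authors' quantifier. The reads were 50-base pairs, so a pair with 1 mate outside a shared stretch could still be assigned. Shares of windows, here and for the genes below, can therefore overstate the share of ambiguous reads. The share of Hspa1a in the counts of both genes was 58.1% and 57.9% in the FDM libraries and 60.1%, 58.1% and 58.3% in the controls. The sum of the pair does not depend on the split. It was 110 CPM in FDM 1, 127 CPM in FDM 3, and 114, 126 and 140 CPM in Control 1, 2 and 3, with a log2 fold change of -0.10 ± 0.12 (edgeR adjusted p = 1). The exons of Hspa1a also overlap those of Gm20481 on the opposite strand, over 19% of its exon length, and the library kit does not mark strand.

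Hspa8 encodes Hsc70, the constitutive cytosolic Hsp70, which also strips clathrin from endocytic vesicles. It was at 1020 CPM in FDM 1 and 1260 CPM in FDM 3, against 1060, 1330 and 1390 CPM in Control 1, 2 and 3. The groups overlapped, since FDM 3 lay between Control 1 and Control 2, and the log2 fold change was -0.15 ± 0.15 (95% interval -0.49 to 0.20). Gm15459 shared 34.6% of the 50-base windows of Hspa8, so part of its count rests on how reads were divided.

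Dnajb1 and Hsph1 encode partners of Hsp70, an Hsp40 that stimulates the Hsp70 ATPase and an Hsp110 that exchanges its nucleotide. Dnajb1 was at 51.6 CPM in FDM 1, 67.3 CPM in FDM 3, and 51.5, 60.0 and 68.2 CPM in Control 1, 2 and 3. The FDM values almost coincided with those of the other eye of the same mouse, and the log2 fold change was -0.01 ± 0.15 (95% interval -0.37 to 0.35). Hsph1 was at 53.7 and 68.7 CPM in FDM 1 and FDM 3 and at 54.9, 81.6 and 69.6 CPM in Control 1, 2 and 3. Here Control 2 was the highest library, and the log2 fold change of -0.17 ± 0.18 had a 95% interval of -0.59 to 0.25. Within mice, FDM minus control was -0.03 in mouse 1 and -0.02 in mouse 3 on the log2 scale.

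Hsp90aa1 encodes the inducible cytosolic Hsp90, which completes the folding of kinases and steroid receptors. It was at 1380 CPM in FDM 1, 1510 CPM in FDM 3, and 1300, 1720 and 1420 CPM in Control 1, 2 and 3. Both FDM values lay inside the control range. The log2 fold change was -0.03 ± 0.13 (95% interval -0.34 to 0.28), and blocking on the mouse turned it to 0.09 (95% interval -0.02 to 0.21). Hsp90aa1 was also the only one of the 10 genes with a higher level in the FDM eye of both mice, by 0.10 and 0.09 on the log2 scale, as 24.6% of all genes tested were. Gm12346 shared 41.8% of its 50-base windows.

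Bag3 is a co-chaperone that links Hsp70 to small heat shock proteins and sends damaged clients to autophagy, and it is abundant in muscle. It lies on chromosome 7 (128523616 to 128546981, GRCm38, plus strand), and none of its 50-base windows occurred in another gene. Bag3 was at 5.60 CPM in FDM 1 and 5.26 CPM in FDM 3 (243 and 253 counts), against 6.18, 6.19 and 8.25 CPM in Control 1, 2 and 3 (247, 353 and 392 counts). It was the only one of the 10 genes in which both FDM values were below every control, a pattern seen in 6.67% of all genes tested, while none of the 10 had both FDM values above every control, against 3.97%. The mean was 5.43 ± 0.244 CPM (SD, n = 2) in FDM and 6.88 ± 1.19 CPM (SD, n = 3) in control eyes. The fold change was 0.79, a log2 fold change of -0.34 ± 0.16 with a 95% interval of -0.72 to 0.04, and it missed the unadjusted threshold in edgeR and in DESeq2 (adjusted p = 1 in both).

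With the mouse as a block the log2 fold change of Bag3 was -0.40 ± 0.15 (95% interval -0.74 to -0.07), past the unadjusted threshold but not after adjustment (edgeR adjusted p = 0.622). If the second FDM library is paired by its number in the labels, with Control 2, it was -0.19 and missed the threshold, which 2.52% of all genes passed in that fit. The size rested on Control 3, the library with the muscle markers: without it, the log2 fold change was -0.18 and missed the threshold, whereas without Control 1 or Control 2 it was -0.41 and -0.40 and passed it (edgeR adjusted p = 0.829 and 0.998), in fits that called 5.45% and 3.11% of all genes tested. Control 3 was also the highest library for the pigment cell markers Pmel (16.3 CPM), Tyrp1 (21 CPM) and Mlana (5.35 CPM). Of the 10 RPE markers, however, 4 were highest in Control 3 and 6 in Control 2. The reactive glia marker Serpina3n was at 17.5 CPM in Control 3 against 5 to 8.21 CPM elsewhere. It was the only 1 of the 7 reactive glia markers highest there, and Edn2, Fgf2 and Stat3 were lowest in Control 3. The part of these markers in the level of Bag3 was not tested. The smallest count, 243, has a 95% Poisson interval of 213 to 276, which covers counting error only.

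Hspb8 and Hspb1 are small heat shock proteins that hold unfolded clients, and Hspb8 is the binding partner of Bag3. Hspb8 was at 6.94 and 6.90 CPM in FDM 1 and FDM 3 and at 6.71, 7.59 and 10.4 CPM in Control 1, 2 and 3. The FDM values lay between Control 1 and Control 2, and Control 3 stood apart, as it did for Bag3. The log2 fold change was -0.25 ± 0.19 (95% interval -0.70 to 0.19), and it was -0.04 without Control 3. In the same library the muscle markers tested, Pmel, Tyrp1, Mlana and Serpina3n were highest, though most of the listed RPE and reactive glia markers were not. The part of all these markers in the level of Hspb8 was not tested.

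Hspb1 was at 3.60 CPM in FDM 1 and 5.90 CPM in FDM 3, against 4.28, 4.07 and 5.45 CPM in Control 1, 2 and 3. The FDM libraries were the lowest and the highest of all 5, and the spread between them exceeded the difference between groups. The log2 fold change was 0.05 ± 0.23 (95% interval -0.50 to 0.60), it was -0.35 without FDM 3 and 0.36 without FDM 1, and neither passed the threshold. FDM 3 was the library with the lens markers, whose part in the level of Hspb1 was not tested. The pseudogene Hsp25-ps1 shared 48.8% of its 50-base windows, and its lowest count, 156, has a counting error of 8.01%.

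Hspe1 encodes Hsp10, the lid of the mitochondrial chaperonin formed by Hspd1. It was at 30.5 and 34.9 CPM in FDM 1 and FDM 3 and at 30.5, 32.9 and 35.1 CPM in Control 1, 2 and 3. It was the steadiest of the 10 genes over the 5 libraries, with a coefficient of variation of 6.88% against up to 20.9% for Hspb1. Its log2 fold change was -0.01 ± 0.10, with a 95% interval of -0.24 to 0.23. Hspd1, at 116 and 123 CPM in FDM and 120, 135 and 123 CPM in control eyes, had a log2 fold change of -0.07 ± 0.09 (95% interval -0.28 to 0.14). The annotated exons of the pair overlap on opposite strands over 7.6% of the exon length of Hspe1. Of the 50-base windows of Hspe1, 18.4% occurred in other genes, 17.9% in AC117239.2.

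**Figure D2:**
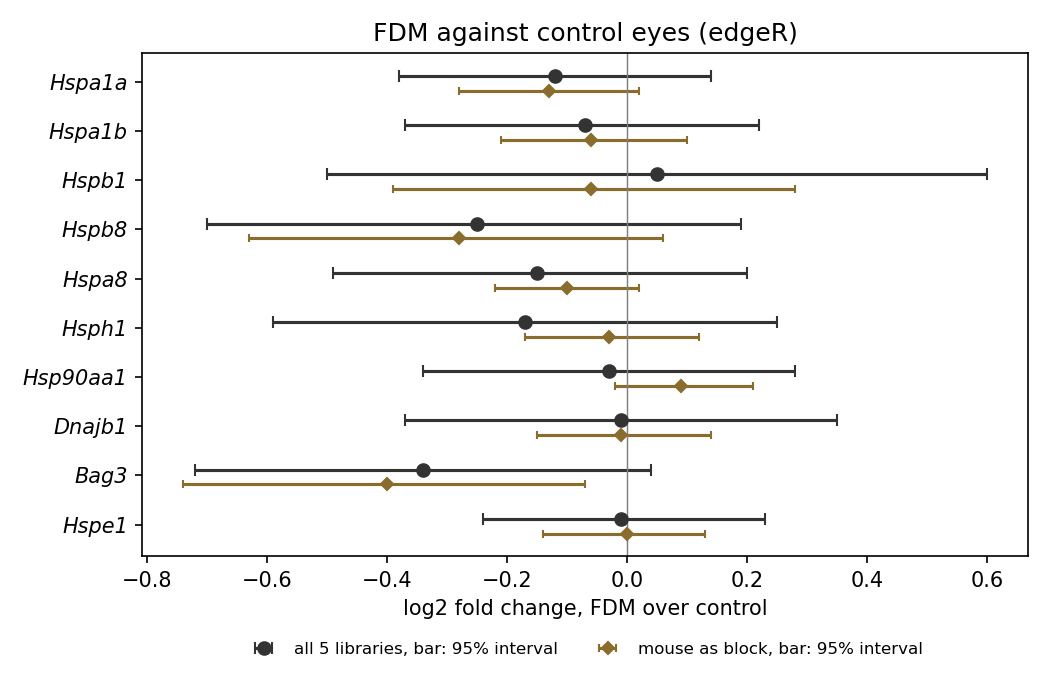
Log2 fold change of each chaperone, FDM over control, with 95% intervals from edgeR. Dark circles use all 5 libraries without a block and brown diamonds use the mouse as a block. Every dark interval includes 0, and with the block the interval of Bag3, -0.74 to -0.07, is the one that does not.

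The differences between the eyes of each mouse are given here as values, without a test of their own. The fit with the mouse as a block, given above, is a test of the same 2 pairs. In mouse 1 the FDM eye was lower than its partner in 5 of the 10 genes, with a median difference of -0.02 on the log2 scale. In mouse 3 it was lower in 8 of 10, with a median of -0.08. Over all genes tested, 9608 of 17432 were lower in mouse 1 and 8755 in mouse 3, with medians of -0.02 and 0. Hspa1a, Hspa8, Hsph1 and Bag3 were lower in the FDM eye of both mice, 4 of 10 genes, and this held for 30.2% of all genes tested. For Hspa1a the differences were -0.10 and -0.16, and for Hspa8 -0.06 and -0.14. The largest differences were those of Hspb8 (0.05 in mouse 1 and -0.59 in mouse 3) and Bag3 (-0.14 and -0.65), and in both genes Control 3 was the highest library. Hspe1 differed by 0.00 and -0.01 and Dnajb1 by 0.00 and -0.02.

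**Figure D3:**
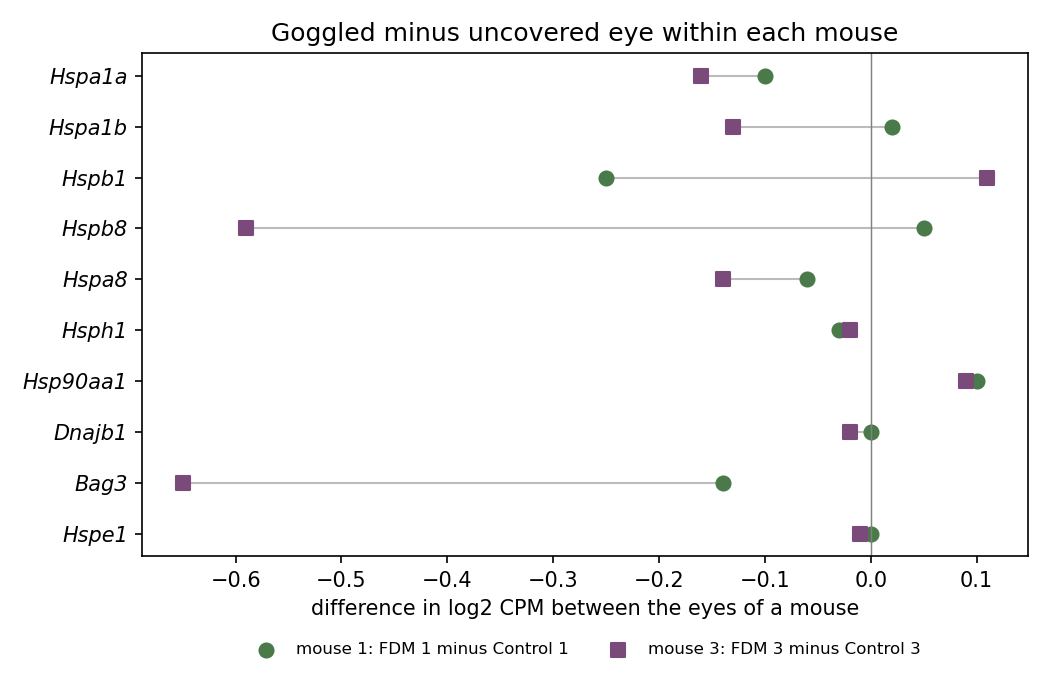
Difference in log2 CPM between the goggled and the uncovered eye of the same mouse for each chaperone. Green circles are mouse 1 (FDM 1 minus Control 1) and purple squares are mouse 3 (FDM 3 minus Control 3). Most points lie within 0.2 of 0, and the squares of Hspb8 and Bag3 lie at -0.59 and -0.65.

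For most of the set the eyes of mouse 1 stood below the rest, the goggled and the uncovered one alike. In 7 of the 10 genes both eyes of mouse 1 were the 2 lowest libraries, the exceptions being Hspb1, Hspb8 and Bag3. The same held for 15.6% of all genes tested and for 16.9% of the 12051 genes at a mean of at least 5 CPM. It also held for 29 of 83 genes of the wider network, with large differences between lists. The shares were highest for the chaperonin TRiC (6 of 7) and for Hsp90 and its co-chaperones (7 of 11). They were lower for Hsp40 and Hsp70 co-chaperones (5 of 14), the endoplasmic reticulum (4 of 16), mitochondrial chaperones (2 of 8) and stress partners (2 of 9). The lowest were heat shock factors and small heat shock proteins (1 of 5 each) and other cytosolic Hsp70 and Hsp110 genes (1 of 8). Control 3 was the highest library for 7 of the 10 genes, Control 2 for Hsph1 and Hsp90aa1, and FDM 3 for Hspb1. Of all 17432 genes tested, Control 3 was the highest for 3525, Control 2 for 5480 and FDM 3 for 1574. The highest level exceeded the lowest by 1.15-fold for Hspe1 and by 1.64-fold for Hspb1, and the other 8 genes lay between. Mouse 1 also had the lowest library totals (43452105 and 40599047 counts). The part of depth was not tested beyond the scaling to the library total.

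The 5 genes outside the set whose profile over the 5 libraries was nearest to that of Hspa1a and Hspa1b together, by the root mean square difference of centred log2 CPM among 12051 genes, were Smim1 (0.0153), Vat1 (0.0158), Adora1 (0.0204), Nell2 (0.0204) and Dusp14 (0.0232). All 5 were lowest in FDM 1 and highest in Control 3, as the summed pair was, an order that comes with the choice by profile. Adora1, the adenosine A1 receptor, was at 65.7 and 74.3 CPM in FDM and 68.2, 74.1 and 80.9 CPM in control eyes. With 5 libraries many genes share such an order. Within the set the nearest after Hspa1a and Hspa1b themselves were Hspe1 (0.0554), Hspa8 (0.0666) and Dnajb1 (0.0782), and the farthest was Hspb1 (0.194).

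The wider chaperone network was read from 9 lists with 85 genes, of which 83 were found by symbol and tested. One passed the threshold, Cryab, which was higher in FDM, against 0.453% of all genes higher and 1.16% lower. The median log2 fold change of the 83 genes was -0.05, and 63 of them were below 0. With the mouse as a block 6 of 83 passed, near the 7.23% of all genes called in that fit, and none after adjustment. These were Cryab, higher, and Hspb6, Hspb7, Calr, Sqstm1 and Ubb, lower. Under the pairing of the labels only Cryab passed, with a log2 fold change of 1.72, and it passed after adjustment too (edgeR adjusted p = 1.65e-09). Its level was high in FDM 3 only, as described below.

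The heat shock factors gave no call. Hsf1, the factor that drives the inducible genes, was at 55.9 and 53.3 CPM in FDM and 59, 45.4 and 49.7 CPM in control eyes, with a log2 fold change of 0.09 ± 0.12 (95% interval -0.19 to 0.37). Hsf5 had the largest change of its list, 0.33 ± 0.35, at 10 to 18 counts per library. Among the 8 other cytosolic Hsp70 and Hsp110 genes the largest was Hspa1l, a neighbour of Hspa1a, at 0.11 ± 0.12.

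All 11 genes of Hsp90 and its co-chaperones had log2 fold changes below 0, between -0.14 and -0.03, and none passed the threshold. Hsp90ab1, the constitutive cytosolic Hsp90, was at 583 and 654 CPM in FDM and 620, 607 and 675 CPM in control eyes, a log2 fold change of -0.04 ± 0.10 (95% interval -0.26 to 0.19). Chordc1, an Hsp90 co-chaperone, had the largest change of this list, -0.14 ± 0.16. Of the 14 Hsp40 and Hsp70 co-chaperones, none was called, and St13, which binds Hsp70, had -0.12 ± 0.13. None of the 8 mitochondrial chaperones and none of the 7 subunits of the chaperonin TRiC was called, and the largest changes were those of Clpb (-0.09 ± 0.08) and Cct4 (-0.13 ± 0.12).

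The list of the endoplasmic reticulum, which holds folding proteins together with the stress regulators Xbp1, Ddit3 and Atf4 and the degradation factor Herpud1, had the lowest list median, -0.11. In it 15 of 16 genes were below 0, both FDM values lay below every control in 5 (6.67% of all genes tested), and none passed the threshold. Hspa5 (BiP), the Hsp70 of that compartment, was at 211 and 234 CPM in FDM and 221, 303 and 260 CPM in control eyes, with a log2 fold change of -0.23 ± 0.14 (95% interval -0.56 to 0.09). Sdf2l1, a stress-induced partner of BiP, had -0.31 ± 0.16 (95% interval -0.68 to 0.05). Without Control 1, in a fit that called 5.45% of all genes, Hspa5, Sdf2l1, Xbp1 and, of the next list, Atf3 passed the unadjusted threshold. They were lower in FDM, with edgeR adjusted p = 0.798, 0.8, 0.829 and 0.829. That fit leaves FDM 1 without its partner eye. In the same gene order, FDM minus control on the log2 scale was -0.07, -0.13, -0.06 and -0.01 within mouse 1. Within mouse 3 it was -0.15, -0.31, -0.16 and -0.19. Of the 9 stress partners of the heat shock response, Gadd45b and Atf3 had the largest change, -0.23 ± 0.13 and -0.23 ± 0.16.

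The largest fold changes in these lists were those of small heat shock proteins, Cryab and Hspb7, and in each 1 library stood apart. Cryab, αB-crystallin, which is both a small heat shock protein and a major lens protein, was at 25.4 CPM in FDM 1 and 257 CPM in FDM 3, against 23.1, 27.4 and 34.4 CPM in Control 1, 2 and 3. Only FDM 3 was high, and it is the library in which the lens marker Cryaa stood at 977 CPM against 0.115 to 6.12 CPM. The log2 fold change of Cryab was 2.32 ± 0.75 (95% interval 0.56 to 4.07, edgeR adjusted p = 1), and the within-mouse differences were 0.14 and 2.90. Hspb7, a small heat shock protein of heart and muscle, was at 0.208 and 0.457 CPM in FDM and 0.351, 0.263 and 1.83 CPM in control eyes. Its high value was in Control 3, the library with the muscle markers, and the log2 fold change was -1.27 ± 0.89 (95% interval -3.37 to 0.83), while the block gave -1.63 (edgeR adjusted p = 0.291) and the block by the numbers of the labels gave 0.14 (edgeR adjusted p = 1). What part lens and muscle RNA had in these levels was not tested.

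**Figure D4:**
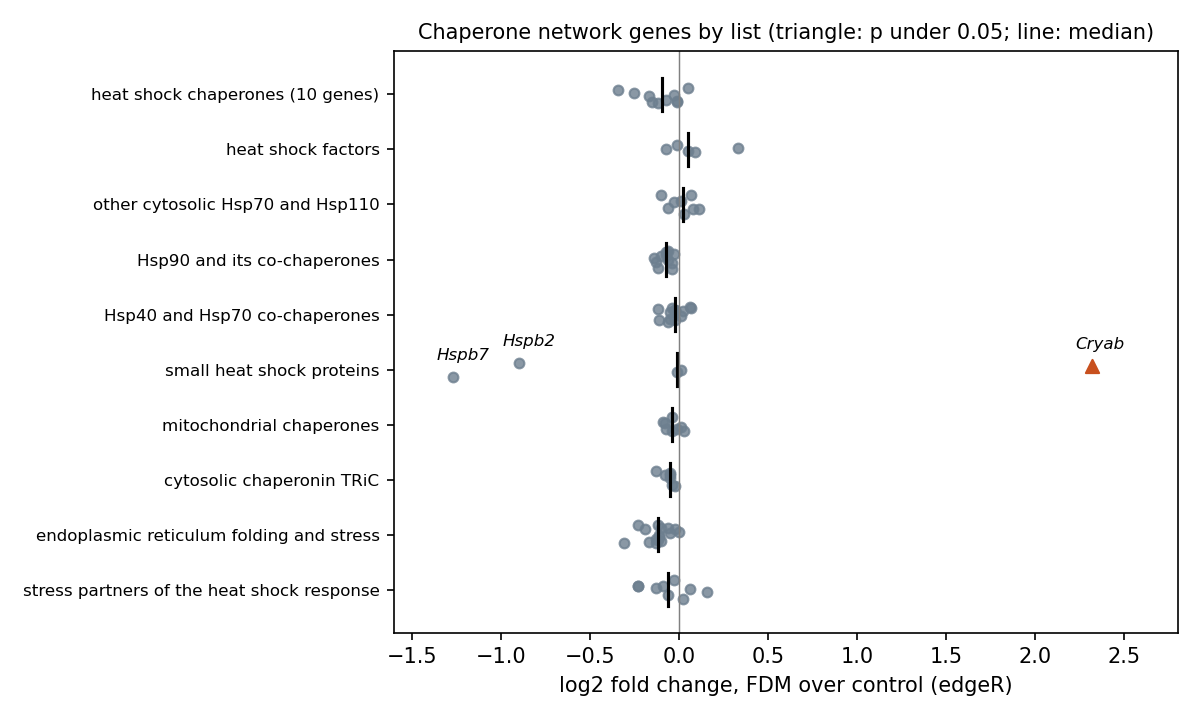
Log2 fold change (FDM over control, edgeR) of the 10 heat shock chaperones and of the 83 other genes of the chaperone network, 1 point per gene and 1 line of points per list, with the list median as a black bar. Points are shifted vertically at random within a list for legibility. Cryab at 2.32 is the gene past the unadjusted threshold of 0.05, and all list medians lie between -0.11 and 0.05.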

How the data were processed

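The TruSeq v2 kit used for these poly-A selected libraries does not mark strand. The submitters' processing notes list Trimmomatic 0.39, Salmon 1.10.1, R 4.3.1 and GRCm38. The authors deposited estimated counts per gene as whole numbers, and a normalized signal from DESeq2 that was used only for limma.

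The 17432 genes counted over 10 times in 2 or more libraries were tested on the estimated counts with TMM factors and the quasi-likelihood test of edgeR 4.0.16 in R 4.3.3, on all 5 libraries, without a block, at the unadjusted p of 0.05 used in the study, with Benjamini-Hochberg values over all genes. Standard errors are the log2 fold change over the square root of F. Alternatives used DESeq2 1.42.0, limma 3.58.1 (pseudocounts 1 and 0.1), other factors and filters, libraries left out, and the mouse as a block. The block rests on same-animal eyes as numbered in the study. The correlation of deviations from group means over genes was 0.258 for FDM 1 and Control 1 and 0.125 for FDM 3 and Control 3. For FDM 3 and Control 2, the pairing of the labels, it was higher than the latter, at 0.155. With 2 FDM libraries their deviations mirror each other, so these values are tied and cannot decide between the pairings. Scripts were tested on simulated data.

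Coordinates, exon lengths and shared windows are from GENCODE M21 on GRCm38, in which 33585 identifiers were found, and upstream sequences are from RefSeq. Named genes outside the set were those called, the largest change per list, Hsf1, Hsp90ab1, Hspd1, Hspa5 and Cryab, and the 5 nearest profiles. Hspb7, the marker genes, the genes called only under a block or with libraries left out, and the activity-regulated genes were chosen with their values in view. The members and lists were chosen with earlier results of these data known.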

Additional observations from a re-analysis of the deposited data

How the results depend on the processing

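No alternative raised the number of the 10 chaperones called except the mouse as a replicate block (1, Bag3, adjusted p = 0.622) and single libraries left out (0 to 1, Bag3 without Control 1 or Control 2). The median log2 fold change of the 10 ran from -0.24 to 0.01 over single libraries left out and was -0.12 without both libraries of mouse 3, an alternative chosen after the data had been seen. Of 151 values of single chaperones under the alternatives, 128 stayed on their side of the threshold with no change of sign at 2 decimals (10 of them printed as 0), 3 passed it (all Bag3) and 20 changed sign, none of the latter past the threshold. Hspe1 was 0.01 with library totals only. Hspb1 was -0.02 in limma with either pseudocount, -0.06 with the block and -0.20 without mouse 3. Hsp90aa1 was 0.09 with the block. Under the pairing of the labels, Hspa1b was 0.01, Dnajb1 0.09 and Hspe1 0.04. With single libraries left out the values ran from -0.19 to 0.03 for Hspa1b, from -0.35 to 0.36 for Hspb1, from -0.11 to 0.10 for Hsp90aa1, from -0.22 to 0.17 for Dnajb1 and from -0.11 to 0.09 for Hspe1. In the wider network the count of 1 became 0 in limma with either pseudocount and without Cryab, Hspb2, Hspb3, Hspb6 and Hspb7, 6 with the block, and 1 to 5 with single libraries left out. The 5 came without Control 1, where 5.45% of all genes were called. Without FDM 3, and without both libraries of mouse 3, the 1 gene called was Hspb2 (lower) and Cryab was not called. The count of all genes called was 172 in DESeq2 and 1261 with the block, against 281. Where 1 FDM library was left, it was assumed to vary like the controls. The cause of these shifts was not tested. At 2 against 3 eyes, the 95% intervals of the 10 genes reach -0.72 and 0.60, so that changes of this size could be missed.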

Other observations

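The activity-regulated immediate early genes, which share stress induction with the inducible chaperones, showed larger differences between the eyes of a mouse than most of the chaperones. Of 11 tested, Egr3 and Arc were lower in FDM at the unadjusted threshold, which 1.16% of all genes passed in that direction (log2 fold change -1.34 ± 0.42 and -0.59 ± 0.21, edgeR adjusted p = 1). With the mouse as a block 10 of 11 passed it, lower in FDM, against 3.67% of all genes, and Fos, Junb, Egr1, Nr4a1 and Dusp1 also passed after adjustment, against 0.31% of all genes in either direction. Under the pairing of the labels these 5 calls were lost (edgeR adjusted p = 1 for each), and of the 11 only Egr3 passed. Egr3, at 14 to 66 counts per library, also passed there after adjustment (edgeR adjusted p = 0.0152). The block calls of the other genes thus rest on the pairing of the study. The level was lower in the FDM eye of both mice for 10 of 11, all but Jun, against 30.2% of all genes, with a median log2 difference of -0.47 in mouse 1 and -0.61 in mouse 3, against -0.02 and -0.08 for the 10 chaperones. Fos, a subunit of the AP-1 transcription factor, was at 40.1 and 33.4 CPM in FDM 1 and FDM 3 and at 55.6, 28.7 and 56.1 CPM in Control 1, 2 and 3, so that the unpaired Control 2 was the lowest library. Egr1, a zinc finger transcription factor, was at 74.3 and 39.7 CPM in FDM and at 119, 29.5 and 87.8 CPM in control eyes. Dusp1, a phosphatase of MAP kinases, was at 27.8 and 28 CPM in FDM and at 42, 27.1 and 50.9 CPM in control eyes. These immediate early genes were chosen with their values in view, so that their counts are a description and not a test. The difference between them and the chaperones was not tested.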
